A study of Mus musculus with 6 samples.

Results

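Gpnmb, a transmembrane glycoprotein that lipid-loaded macrophages make in large amounts, was well above background in the liver RNA of all 3 L1-Tg pools and of 0 of the 3 WT pools. Together with it, 7 genes that belong to the same macrophage program were followed: Trem2, Spp1, Cd9, Lgals3, Ctsd, Mmp12 and Lpl. These 8 genes, of 37052 on the array, were listed by name, and Gpnmb was chosen by its own readout in these arrays, its detection in L1-Tg pools only. Its values are therefore given as a description, without a test. The question was whether the other 7 genes followed it. They were represented, with Gpnmb, by 11 probes, of which 8 were well above background on all 6 arrays. Beside Gpnmb, 6 genes could be tested. All 6 had a higher mean in L1-Tg mice, by log2 differences between 0.15 for Cd9 and 0.92 for Trem2, and 0 of the 6 were past an adjusted p of 0.05, as 0.130% of all tested genes were. The last gene, Mmp12, was well above background in 1 pool, by 1 of its probes, and could not be tested.

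L1-Tg mice were hemizygous for the transgene of the line B6;D2-Tg(APOE-NPC1L1)20Lqyu/J, which drives human NPC1L1, a cholesterol transporter, in hepatocytes from the APOE promoter, and had been backcrossed to C57BL/6J for at least 8 generations. The controls were WT littermates, and both groups were males of 6 to 12 weeks fed the control-fat diet (CFD), so that no group had received a high-fat diet. Each of the 6 arrays held liver RNA from a pool of 2 or 3 mice, with 3 pools per genotype, and the p-values below measure the spread between pools and not between single mice. The group is 1 transgenic line, and the promoter is meant for hepatocytes and not for macrophages.

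Lipid-associated macrophages appear where tissue macrophages take up cell debris and lipid. The receptor TREM2 senses lipids and signals through the adaptor DAP12, and the cells raise lysosomal enzymes, lipid-handling proteins and secreted matrix factors, and GPNMB under the MITF/TFE family of transcription factors. In the liver, such cells are known from steatosis and scarring, where they arise largely from recruited monocytes, while resident Kupffer cells are the main macrophages of healthy tissue. Several of the genes are not particular to macrophages: Spp1 is also made by cholangiocytes, Lpl by adipocytes and muscle, and Cd9, Ctsd and Lgals3 by many cell types.

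The liver label was checked against 8 hepatocyte markers, all of which were measured on every array. Their log2 signals (the log2 of the processed signal minus that of the array's 75th percentile, so that 0 is the signal of that percentile) reached 10.63 in L1-Tg and 10.75 in WT mice for Alb, the gene of serum albumin. A single slide and scan carried the arrays, and since row 1 of the slide held WT pools and row 2 held L1-Tg pools, slide row and genotype cannot be told apart. The 75th percentile lay between intensities of 296 and 378, and 53.1% to 59.2% of probe spots were well above background. The median local background was 38 to 41 on the L1-Tg arrays and 45.5 to 51 on the WT arrays. The array's mouse Npc1l1 probe was well above background in 1 L1-Tg and 2 WT pools. Whether it can read the human transgene was not tested, so the labels were not checked by it. In bulk tissue, more cells of a type and more RNA per cell cannot be told apart.

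Promoter sequences are shown for Gpnmb, Trem2 and Ctsd, the 3 genes whose L1-Tg pools all lay above the WT pools by the probe used. This held for 7.22% of all tested genes, and Gpnmb was chosen by that contrast. They were taken from RefSeq (build GRCm38.p6), which held entries for 7 of the 8 genes, with 9 entries in all. Lpl had no entry. Each sequence is the 250 bases before the start of transcription, at chr6:49036268-49036517 (plus strand) for Gpnmb, chr17:48346151-48346400 (plus strand) for Trem2 and chr7:142387828-142388077 (minus strand) for Ctsd. Capitals mark matches on either strand to 4 motifs: the E-box CACGTG and the M-box TCATGTG of the MITF/TFE family, the AP-1 motif TGANTCA and the PU.1 motif GAGGAAGT, PU.1 being the master factor of myeloid cells.
Gpnmb: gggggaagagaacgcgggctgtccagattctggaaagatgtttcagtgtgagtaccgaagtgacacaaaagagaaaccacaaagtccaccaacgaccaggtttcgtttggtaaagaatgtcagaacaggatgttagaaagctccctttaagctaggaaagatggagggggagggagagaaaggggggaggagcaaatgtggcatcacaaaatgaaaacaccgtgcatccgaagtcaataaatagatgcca
Trem2: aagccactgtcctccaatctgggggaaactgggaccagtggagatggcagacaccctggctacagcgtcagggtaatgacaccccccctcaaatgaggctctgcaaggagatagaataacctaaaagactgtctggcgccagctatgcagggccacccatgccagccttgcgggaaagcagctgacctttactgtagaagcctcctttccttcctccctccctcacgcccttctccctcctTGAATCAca
Ctsd: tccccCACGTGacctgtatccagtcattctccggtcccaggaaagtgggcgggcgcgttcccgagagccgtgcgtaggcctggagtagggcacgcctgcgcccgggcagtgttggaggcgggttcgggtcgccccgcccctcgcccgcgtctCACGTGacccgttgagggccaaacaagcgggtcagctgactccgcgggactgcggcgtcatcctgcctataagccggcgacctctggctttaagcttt
Ctsd, a lysosomal protease gene, held the E-box with its first base 98 and 245 bases before the start, and was the single entry of the 9 with that motif, which 6.02% of the 32851 promoter entries of this length held. Trem2 held the AP-1 motif, from 9 bases before the start, a motif that 6.75% of all entries held. The Gpnmb window held none of the 4. Among the entries not shown, Spp1 held the PU.1 motif in 1 of its entries, and Mmp12 held the PU.1, M-box and AP-1 motifs over its entries. The PU.1 motif stood in 2.44% and the M-box in 3.25% of all entries. These are matches of letters and not measured binding.

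Gpnmb had processed intensities of 29.3, 25.7 and 36.1 in L1-Tg pools 1, 2 and 3. In WT pools 1, 2 and 3 they were 5.75, 3.04 and 3.31. All L1-Tg pools were above all WT pools, and each L1-Tg value was marked well above background whereas none of the WT values was. On the log2 scale, the mean signal was -3.48 ± 0.24 (SD, n = 3) in L1-Tg and -6.38 ± 0.52 (SD, n = 3) in WT mice. Because the WT mean lies below the detection limit, only a bound can be given for the ratio. For it, each WT array was set at the lowest signal that any of its probes had while well above background. Under that setting Gpnmb was 1.76-fold higher in L1-Tg mice. The setting is no ceiling for undetected spots, so the bound holds only under it. In WT pool 2, Muc1 was not well above background at -4.46, above the lowest detected signal of that array, -4.53. The lowest of the L1-Tg signals, -3.69, was above that lowest detected signal on every WT array, which lay between -4.53 and -3.98.

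The spot itself was dim. Its median pixel intensity was 82.5, 74 and 86.5 in L1-Tg pools 1, 2 and 3, over a local background of 40, 38 and 37. In WT pools 1, 2 and 3 it was 61, 49.5 and 52.5, over a local background of 55, 54 and 52. The spots of the L1-Tg pools were thus brighter than those of the WT pools before any correction, and the background around them was lower. With a normexp background correction in place of the processed signal and its offset of 50, the measured log2 difference was 0.58, which is no fold, since the WT spots were not well above background. The part of the local background and of the slide row in the detection was not tested.

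**Figure D1:**
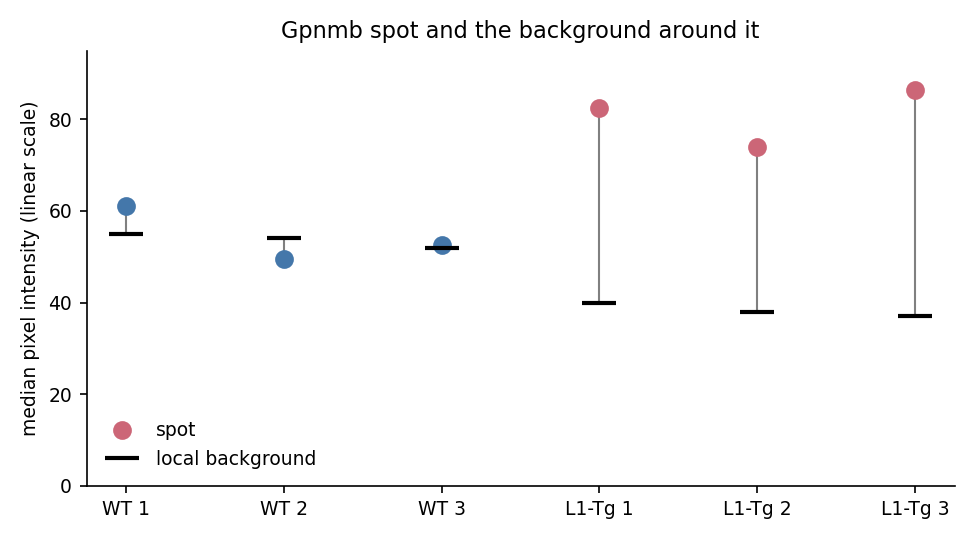
Median pixel intensity (linear scale) of the Gpnmb spot on each of the 6 arrays (circles, WT blue and L1-Tg red) and of the local background around it (black dashes), joined by a grey line. The spot stood between 74 and 86.5 on the L1-Tg arrays over a background of 37 to 40, and between 49.5 and 61 on the WT arrays over a background of 52 to 55.

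Detection in L1-Tg pools only was not particular to Gpnmb. It held for 95 of the 22340 genes tested, 55 of them with a gene symbol, while 6 genes were detected in all WT pools and 0 L1-Tg pools. The bound on the ratio had a median of 1.32, from which any genes with a bound below equal signal were left out. It reached 27.8, and 19 of the 95 genes had a bound above that of Gpnmb. A pair of marker genes, named after their values were seen, shows how the mark can divide the groups where the signal does not. Cd8a, a marker of cytotoxic T cells, was detected in 3 L1-Tg pools and 0 WT pools, with log2 signals of -4.30, -4.17 and -4.18 in L1-Tg pools and -4.06, -4.72 and -6.56 in WT pools. The undetected WT pool 1 was above all 3 detected L1-Tg pools. Muc1, a mucin of bile duct cells, had -4.21, -3.90 and -4.30 in L1-Tg pools and -4.17, -4.46 and -4.72 in WT pools, with the same split of the marks.

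The receptor Trem2 showed the largest difference of the tested genes of the group. Its log2 signal was -0.89, -0.78 and 0.21 in L1-Tg pools 1, 2 and 3 and -1.42, -1.75 and -1.03 in WT pools 1, 2 and 3. L1-Tg pool 3 stood highest by a wide margin, and the lowest L1-Tg pool was still above the highest WT pool. The difference between the means was 0.92 (standard error 0.33, 95% interval 0.11 to 1.72), or 1.89-fold, with a limma adjusted p of 0.532 over all genes tested. Without L1-Tg pool 3 the difference was 0.57 and the adjusted p 0.935.

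Spp1 encodes osteopontin, a secreted ligand of integrins and CD44. Its log2 signal was -0.22, -0.45 and 0.43 in L1-Tg pools and -0.65, -0.79 and -0.36 in WT pools, again with L1-Tg pool 3 highest. L1-Tg pool 2 lay below WT pool 3, so the groups overlapped. The difference of 0.52 (95% interval -0.07 to 1.11) had an adjusted p of 0.580 in limma. Without L1-Tg pool 3 it was 0.27. Of the markers of cholangiocytes, another source of Spp1, 5 of 7 tested were lower in L1-Tg mice. The summed signal of the 7, as a percentage of the WT mean, was 70.8 to 82.0 in L1-Tg and 85.0 to 129 in WT pools. WT pool 1 had the 129, and without it the median log2 difference of the markers moved from -0.36 to 0.03. The sums of WT pools 2 and 3, at 86.3 and 85.0, were still above those of the L1-Tg pools. Muc1, counted as higher, was detected in 0 WT pools, and Krt7, counted as lower, in 2 L1-Tg pools. The further marker Epcam was not detected in all pools of either group. The part of cholangiocytes in the Spp1 values was not tested.

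Lgals3, which encodes galectin-3, a lectin of macrophages, had log2 signals of 2.37, 1.92 and 2.24 in L1-Tg pools and 1.26, 2.25 and 1.92 in WT pools. WT pool 1 was low and WT pool 2 was above 2 of the L1-Tg pools, so the groups overlapped. The difference was 0.37 (95% interval -0.27 to 1.01, limma adjusted p = 0.672). Lgals3 was the one gene of the 6 tested with L1-Tg pool 1, not pool 3, as its highest L1-Tg pool.

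Ctsd, the gene of the lysosomal aspartic protease cathepsin D whose promoter with the pair of E-boxes is shown above, was bright on every array. Its log2 signal was 5.91, 5.99 and 6.12 in L1-Tg pools and 5.73, 5.61 and 5.84 in WT pools, without overlap. The difference was small, 0.28 (standard error 0.11, 95% interval 0.02 to 0.54), or 1.21-fold, and the adjusted p was 0.547 in limma. The other probe of Ctsd gave the same difference of 0.28, but with overlapping groups, since WT pool 3 had 2.73 and L1-Tg pool 2 had 2.71.

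Cd9, a tetraspanin of the cell surface, had log2 signals of 1.87, 2.22 and 2.28 in L1-Tg pools and 2.03, 1.73 and 2.16 in WT pools. The values were interleaved, and the difference of 0.15 (95% interval -0.24 to 0.55) had an adjusted p of 0.764 in limma. The interval includes differences of either sign.

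Lpl encodes lipoprotein lipase, which releases fatty acids from circulating triglyceride. Its log2 signal was 2.04, 2.11 and 2.62 in L1-Tg pools and 2.74, 0.91 and 1.87 in WT pools, so that the highest and the lowest of all 6 values were both WT pools. The difference was 0.42 (95% interval -0.67 to 1.51, limma adjusted p = 0.766). It rested on WT pool 2, without which it was -0.05. The other Lpl probe ordered the WT pools in the same way, at 0.91, -0.67 and 0.15, and gave a difference of 0.34. Adipocyte markers varied over the pools as well. Their signal was summed over the 3 of 7 markers that were tested. It was 100%, 143% and 74.6% of the WT mean in L1-Tg pools 1, 2 and 3. In WT pools 1, 2 and 3 it was 153%, 56.2% and 90.4%. WT pool 1 was highest and WT pool 2 lowest, as for Lpl, but the order of the L1-Tg pools differed. L1-Tg pool 3 had the lowest sum of its group and the highest Lpl signal. Fabp4, among these markers, is also counted among the lipid-associated macrophage genes. Their part in the Lpl values was not tested, and the defining markers Adipoq, Lep, Plin1 and Retn were not detected in all pools of either group.

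Mmp12, macrophage elastase, was marked well above background in L1-Tg pool 1 by 1 of its probes and nowhere else. That probe had intensities of 23.9, 15.9 and 3.79 in L1-Tg pools 1, 2 and 3 and 9.77, 10.4 and 12.0 in WT pools. The single detected pool was not one in which Trem2 or Spp1 was highest. The other probe was detected on 0 arrays. No ratio is given, since neither group was measured.

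**Figure D2:**
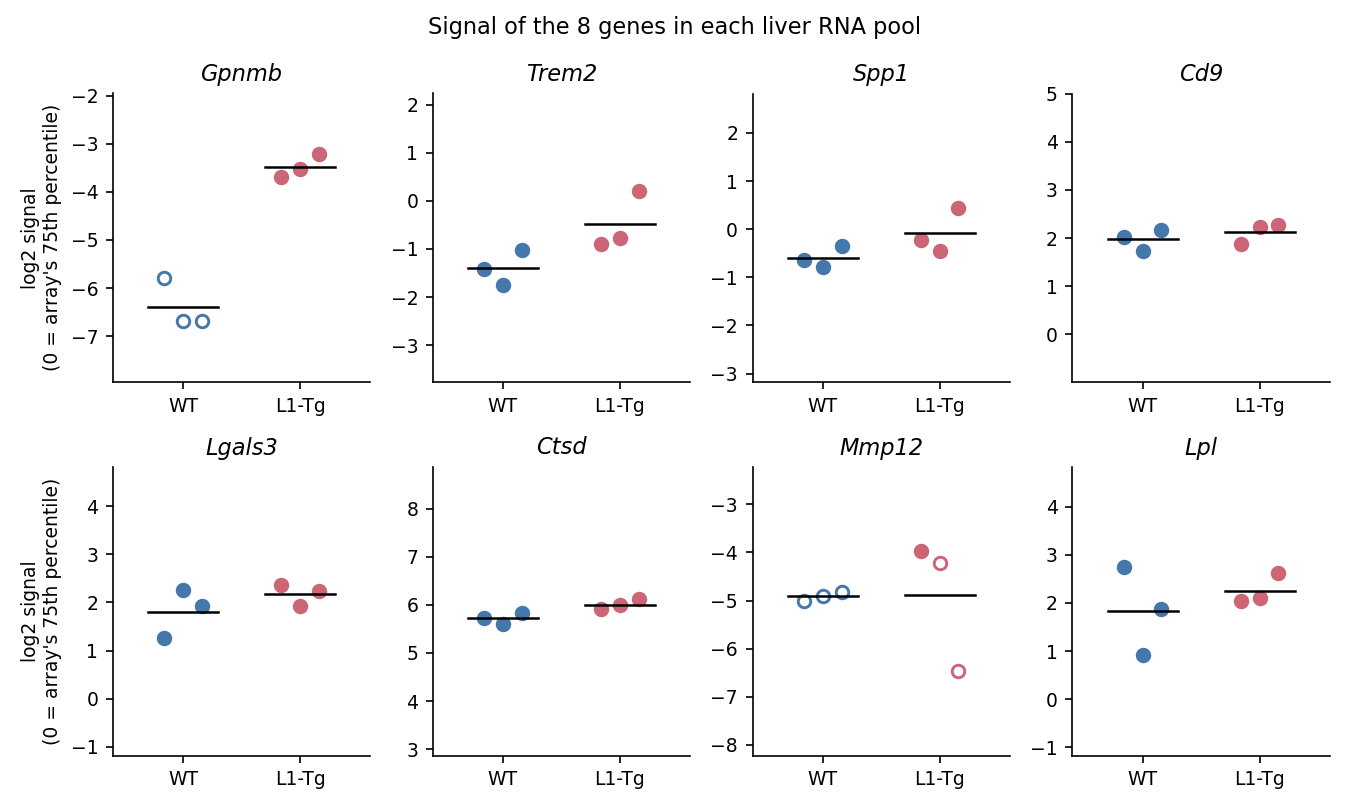
Log2 signal of each of the 8 genes (0 is the 75th percentile of the array) in the 3 WT pools (blue) and the 3 L1-Tg pools (red), with the mean of each group as a black line. Filled circles were well above background and open circles were not, every panel spans the same range of log2 units, and heights compare within a panel only. Gpnmb is filled in the L1-Tg pools only, with Trem2 and Ctsd also free of overlap, and Mmp12 is open in all but 1 pool.

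Of the 6 genes tested beside Gpnmb, 2 had an unadjusted p under 0.05, Trem2 and Ctsd, where 4.51% of all tested genes had one and were higher. The same 2 had groups that did not overlap, which held for 7.22% of all tested genes in that direction. Without L1-Tg pool 3 or without WT pool 2, none of the 6 had an unadjusted p under 0.05. The median of the 6 differences was 0.39, and 0.25 without L1-Tg pool 3, against -0.03 over the 22340 genes tested, of which 42.9% were higher in L1-Tg mice. On the difference index of the study's methods, which divides the difference of the mean intensities by the sum of their SDs, 3 of the 7 genes beside Gpnmb were above its threshold of 0.7, as 8.61% of all genes on the array were in this direction. They were Ctsd with 1.25, Trem2 with 0.85 and Spp1 with 0.73. The share is over all 37052 genes, detected or not, of which 3189 were above 0.7 and 8026 below -0.7. It is thus not the share of detected genes. The index was 0.49 for Lgals3, 0.36 for Cd9 and 0.22 for Lpl. For Mmp12 it was 0.32 by the brighter probe, from spots mostly not well above background. An exact permutation test of 3 against 3 pools cannot go below a p of 0.10.

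**Figure D3:**
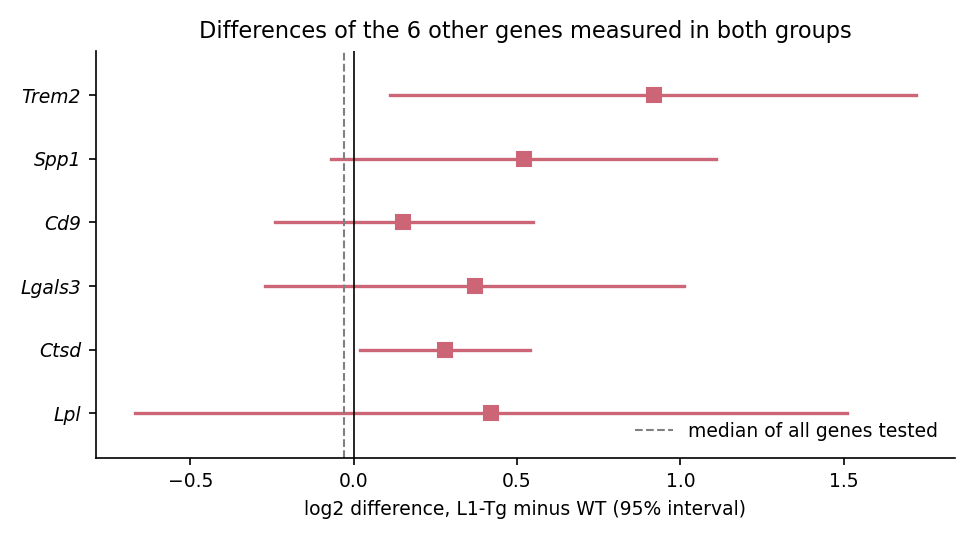
Log2 difference between the L1-Tg and WT means of the 6 genes measured in both groups beside Gpnmb (squares), with 95% intervals from limma. The dashed grey line is the median of all genes tested, at -0.03. All 6 squares lie above 0, and the intervals of Trem2 and Ctsd alone do not reach 0.

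The pools of a group differed among themselves. Measured as the median deviation of the 6 genes from their WT means, L1-Tg pools 1, 2 and 3 stood at 0.29, 0.25 and 0.61, and WT pools 1, 2 and 3 at -0.01, -0.22 and 0.15. Of the 6 genes, L1-Tg pool 3 had the highest L1-Tg signal for 5, all but Lgals3, and WT pool 2 the lowest WT signal for the same 5. Kupffer cell markers followed the order of these medians only in part. Both had WT pool 3 as the highest WT pool and L1-Tg pool 2 as the lowest L1-Tg pool, and the other ranks differed. The median deviation of the 13 markers was 0.43, 0.16 and 0.27 in L1-Tg pools and -0.40, -0.11 and 0.52 in WT pools, so that the highest value belonged to WT pool 3.

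**Figure D4:**
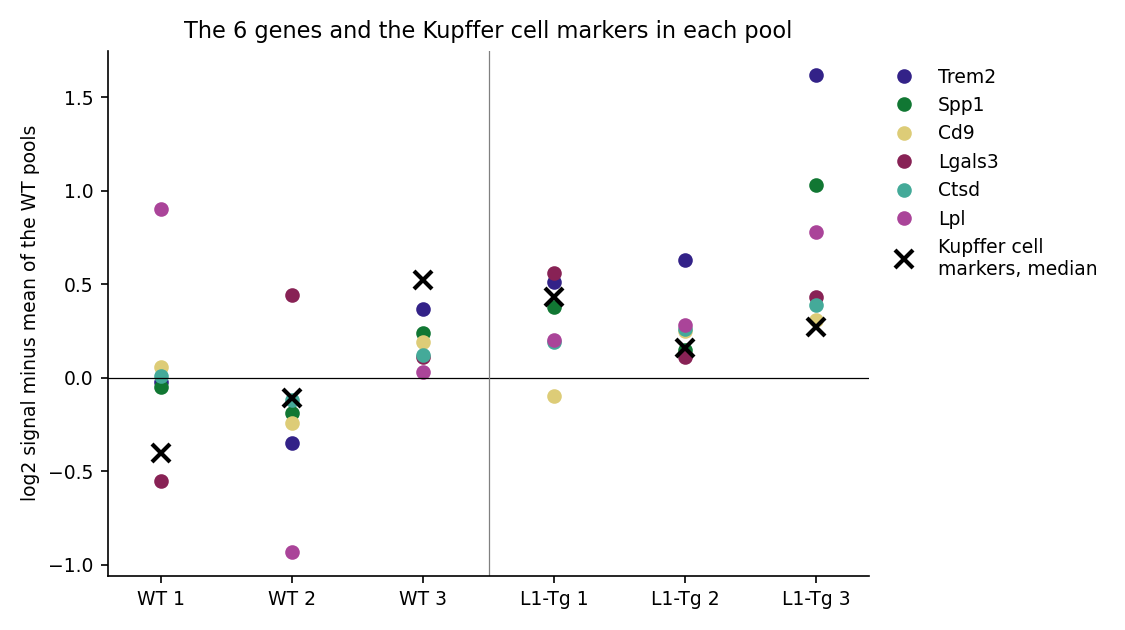
Log2 signal minus the mean of the WT pools for the 6 tested genes (coloured circles) and the median of 13 Kupffer cell markers (black crosses) in each of the 6 pools. L1-Tg pool 3 holds the highest values of Trem2 (1.62) and Spp1 (1.03), whereas the marker median there, 0.27, is below that of WT pool 3, 0.52.

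Markers of the resident macrophages were higher in L1-Tg mice for 11 of 13, with a median log2 difference of 0.30, and in limma 0 were under 0.05, with or without adjustment. Their summed signal was 112% to 131% of the WT mean in L1-Tg pools and 72.6% to 132% in WT pools. The ranges overlapped through WT pool 3 alone. The median difference ranged from 0.09 without WT pool 1 to 0.58 without WT pool 3. The largest differences were those of Cd5l, a secreted apoptosis inhibitor of macrophages, with 0.63 (adjusted p = 0.561), and the complement gene C1qb, with 0.49. The smallest was that of the haptoglobin-hemoglobin receptor Cd163, with -0.66. All 13 were detected in all pools. The part of the macrophage number in the values of Trem2, Ctsd and the other genes was not tested.

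Markers of recruited monocytes and the macrophages derived from them were higher for 6 of 8, with a median of 0.23. That median was 0.02 without L1-Tg pool 3, 0.08 without WT pool 1 and 0.44 without WT pool 2. Ccr2, detected in 2 WT pools, passed the filter through the L1-Tg pools alone and counts in the 6 and in the median. Over the monocyte markers detected on all 6 arrays the median was 0.27. Plac8 had a difference of 0.83 and Chil3, a chitinase-like protein, of 0.76, whereas the integrin gene Itgam had -0.26 and Fn1 -0.13 (limma adjusted p from 0.484 for Plac8). The summed signal was 84.1% to 97.5% of the WT mean in L1-Tg pools and 91.6% to 111% in WT pools, but Fn1, which hepatocytes also make, was 86.2% to 93.1% of that sum in each pool.

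Of 26 further genes of lipid-associated macrophages, 23 were tested, with 19 higher and 4 lower in the L1-Tg pools and a median of 0.20. After adjustment 0 were past 0.05 in limma, and before it 3 were, all of them higher, where 4.51% of all tested genes were. The largest difference was that of Cd36, a fatty acid and lipoprotein scavenger receptor that hepatocytes also make. Its log2 signal was 1.70, 1.03 and 1.79 in L1-Tg pools and 0.35, -0.69 and 0.41 in WT pools, without overlap, 1.48 apart in their means (adjusted p = 0.372 in limma). Ms4a7, a membrane protein of monocyte-derived macrophages, followed with 1.41 (adjusted p = 0.520), at -0.17, -0.64 and 0.64 in L1-Tg pools and -2.20, -1.67 and -0.53 in WT pools. WT pool 3 was above L1-Tg pool 2 for this gene. Fabp5, a fatty-acid-binding protein, had the smallest difference, -0.14, and Apoe, an apolipoprotein of macrophages and hepatocytes, had -0.12. Cd68, Clec7a and Cst7 could not be tested.

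The signalling and shedding partners of TREM2 were higher for 9 of 11, with a median of 0.31 (0.17 without WT pool 1) and a smallest adjusted p of 0.548 in limma. Blnk, an adaptor of immune receptors, had the largest difference, 0.61, and the exchange factor Vav1 the next, 0.47. Tyrobp, which encodes DAP12 itself, was named after its values were seen and had 0.40 (adjusted p = 0.631), at 3.34, 3.11 and 3.23 in L1-Tg pools and 2.41, 2.76 and 3.32 in WT pools. WT pool 3 reached the L1-Tg values, as it did for the Kupffer cell markers. The smallest differences were those of Adam17, a protease that sheds TREM2, with -0.20, and the adaptor Grb2, with -0.02.

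The lysosome showed no common direction. Of 24 MITF/TFE factors and lysosomal genes, 11 were higher and 13 lower, with a median of -0.02. The factor Tfec, detected in 2 of the WT pools, had 0.62, and Sgsh, a sulfamidase, had -0.41 and Ctsa -0.19. Hexa, a lysosomal hydrolase, was named after its values were seen and had the smallest adjusted p of the list, 0.393, with a difference of 0.42. The factor Mitf differed by -0.02. The other cathepsins divided likewise, with 7 of 12 higher and a median of 0.08. Ctss had 0.57, Ctsk 0.25, Ctso -0.42 and Ctsf -0.23.

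The receptors of Spp1 and Gpnmb, 10 genes of integrins, Cd44 and Sdc4, stayed within differences of -0.19 for Itga4 and 0.29 for Itga8. Between these limits, Itgb3 had 0.24 and Itgav -0.09, 7 were higher, and the median was 0.09. Among the partners and inhibitors of Lpl, 4 were higher and 6 lower, with a median of -0.21. Apoa5, an activator of lipolysis, was lower by a log2 difference of -0.54 without overlap (limma adjusted p = 0.479), Angptl8, an inhibitor, had -0.45, and Vldlr, a lipoprotein receptor, had 0.60.

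Relatives of the remaining genes were mixed. Of 7 galectins beside Lgals3, 5 were tested and 4 were higher, with a median of 0.10. Lgals1, also counted among the lipid-associated macrophage genes, had log2 signals of 2.67, 1.92 and 3.57 in L1-Tg pools and 1.57, 1.52 and 1.27 in WT pools. The groups did not overlap, with L1-Tg pool 3 again highest, and the difference was 1.27 (limma adjusted p = 0.485). Lgals9 had 0.36, and the smallest were Lgals4 with -0.14 and Lgals2, detected in 1 WT pool, with 0.05. Tetraspanins and partners of Cd9 had a median of -0.02 over 9 genes, from -0.36 for Tspan8 and -0.18 for Tspan4 to 0.23 for Cd53 and 0.52 for Cd63. Of 15 other matrix metalloproteinases and inhibitors, 7 were not detected in all pools of either group, among them Mmp9, Mmp13 and Timp1. The 8 tested had a median of 0.08, from -0.26 for Mmp15 and -0.25 for Mmp14 to 0.25 for Mmp7 and 0.44 for Mmp2.

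Other cell types were read through their markers in the same way. Neutrophil markers were higher for 4 of 5, with a median of 0.87, led by S100a8 with 0.99. Of those higher, 0 had an unadjusted limma p under 0.05. Their summed signal went the other way, at 81.9% to 90.7% of the WT mean in L1-Tg pools and 96.7% to 105% in WT pools. That sum was mostly Csf3r, by far the brightest of them, so it reads chiefly this gene. The mean log2 signal of Csf3r was 7.37 in L1-Tg and 7.61 in WT mice, against 1.70 and 0.83 for S100a9. Csf3r was lower without overlap (unadjusted p = 0.0314 in limma). The median was 0.56 without L1-Tg pool 2 or without WT pool 1, and 0.19 after normexp. Mpo was detected in 3 L1-Tg pools and 1 WT pool, so its difference is not given. Like Retnlg, it passed the filter through the L1-Tg pools alone, and both count in the 4 of 5 and in the median. Over the markers detected on all 6 arrays the median was 0.87 as well. The other end was Csf3r with -0.24 and Retnlg, detected in 2 of the WT pools, with 0.54. Lymphocyte markers had a median of 0.36 over 7 genes, from -0.30 for Cd3e and -0.06 for Nkg7 to 0.91 for Ms4a1. Cd8a, which counts in that median, was detected in 0 WT pools and has no measured difference. Cd79a and Cd3g, each detected in 2 WT pools, also passed the filter through the L1-Tg pools alone and count in it. Over the lymphocyte markers detected on all 6 arrays the median was 0.26. The median was 0.10 for liver endothelial cells, -0.05 for stellate cells, -0.36 for cholangiocytes (0.03 without WT pool 1) and -0.16 for hepatocytes. Cells outside the liver lineages that make much Gpnmb, melanocytes and osteoclasts, had a median of 0.05 over 5 markers, from -0.50 for Dct and -0.05 for Acp5 to 0.25 for Pmel and for Ctsk, and Tyrp1, Mlana and Dcstamp were not detected in all pools of either group. Over all lists, 167 of 197 distinct genes were tested, 16 had an unadjusted limma p under 0.05 in either direction, as 8.88% of all tested genes had, and 0 were past the threshold after adjustment.

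**Figure D5:**
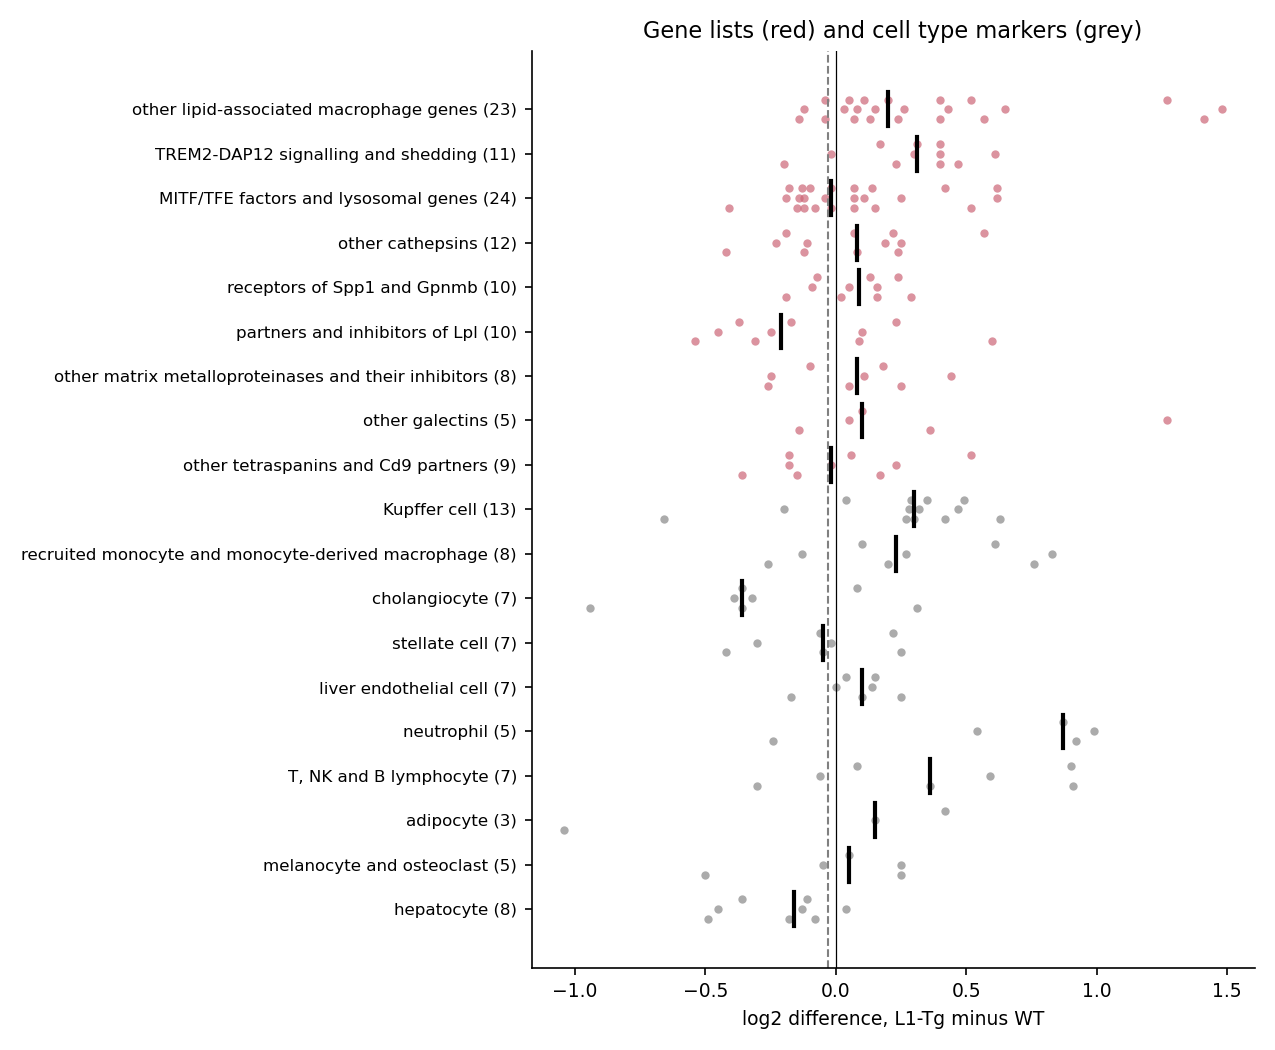
Log2 difference between the L1-Tg and WT means of every tested gene (dots) of 9 gene lists (red) and 10 cell type marker lists (grey), with the list's median as a black bar and its number of tested genes in parentheses. The solid line is 0 and the dashed line the median of all genes tested, at -0.03. The medians run from -0.36 for cholangiocyte markers to 0.87 for neutrophil markers, and the other lipid-associated macrophage genes have 0.20.

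The genes whose pattern over the 6 arrays was most like that of Gpnmb were found by the mean absolute difference between log2 signals, each gene centred on its own mean. They were chosen by the same contrast as Gpnmb, so their differences are a description only. Krtap5-1 was the closest, with 0.26, followed by Tmem253 with 0.29, Ttc39a with 0.31, Derl3 with 0.34 and Ifi27l2b with 0.36. Meox1 (0.40), Asns (0.44), Lig1 (0.44), Capn8 (0.45) and Prss41 (0.49) completed the first 10 with a symbol, and 5 genes without a usable symbol ranked among them. Of the 10, Meox1 and Capn8 were, like Gpnmb, detected in 0 WT pools. None of them was on the list of lipid-associated macrophage genes. The mean absolute difference was 0.99 for Trem2 and 1.19 for Spp1. Since the WT signals of Gpnmb were not well above background, this order rests in part on values that were not measured, and nothing is read from it.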

How the data were processed

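Liver RNA of 3 L1-Tg and 3 WT pools was hybridized to 1-color Agilent arrays of 62976 spots. The authors used Feature Extraction 10.10.1.1 on the scans. Its deposited processed signal is a background-subtracted, detrended intensity on the linear scale, with surrogate values for spots below background and no scaling between arrays. The deposited median signals of spots and of their local background are uncorrected intensities, and the deposited matrix holds the processed intensities times 1 factor per array. The authors' marks, deposited as other values of 0 or 1, say which spots were well above background, saturated or non-uniform.

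Control spots were dropped, non-uniform spots set missing and repeated probes averaged. The log2 of the processed signal minus the array's 75th percentile was used, and a gene was represented by its brightest probe. RefSeq accessions named 28685 probes, and 27235 of them led to a symbol. A gene entered the test if every array of L1-Tg or of WT mice marked it well above background, which left 22340 genes. They were compared by limma 3.58.1 (lmFit, then eBayes) under R 4.3.3. The test was two-sided, p-values were adjusted after Benjamini and Hochberg over these genes, and the threshold was 0.05. The genes, the lists and the tests were chosen with earlier results of these data known. The text names every listed gene of the group, the 2 largest and 2 smallest differences of each list, the 10 genes most like Gpnmb, and others only where it says so; some of these genes are not reported here. For the endothelial, stellate, cholangiocyte and hepatocyte lists it gives medians in place of these genes. In a simulation built on the observed variances, 56.0% of genes changed by a log2 of 1 and 81.0% of those changed by 2 were called, with 10 false among 147 calls. It held 200 changed genes, and the arrays gave 29 calls. The adjusted threshold depends on that number, so these shares are not the power for a gene of the group. The alternatives concerned scaling, background correction, the deposited matrix, the filter on dim probes, the choice of probe, a replicate block, unmoderated variances and leaving out each pool. The number of arrays limits the precision.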

Additional observations from a re-analysis of the deposited data

How the results depend on the processing

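Of the tested genes beside Gpnmb, Trem2, Spp1, Cd9, Lgals3 and Ctsd were higher in L1-Tg mice in all 15 alternatives and Lpl in 14, and none passed the adjusted threshold in any. Trem2 ranged from 0.57 to 1.12 (limma adjusted p 0.338 to 0.935) and Ctsd from 0.22 to 0.39. Lpl ranged from -0.05 (without WT pool 2) to 0.87. The Gpnmb difference rests on WT values not well above background and is no fold. It was 0.58 after normexp, and it had no value where detection on all 6 arrays was required. Mmp12 gave no value in any alternative with a filter on dim probes. With an index above 1 in place of 0.7, 2 of the 8 genes were above it, Ctsd and Gpnmb, the latter chosen by this contrast. The number of genes past the adjusted threshold, 29, was 10 without a filter on dim probes, 0 without moderated variances (1841 at an unadjusted p under 0.05) and 15 to 35 with 1 pool left out. With the replicate block it was 11, and the block changed the call of no gene of the group. The labels do not say that the replicate numbers pair the pools. Deviations of same-numbered pools correlated at -0.16, 0.11 and 0.02, and those of differently numbered pools between -0.17 and 0.17. With 3 pools per group these values cannot decide whether pools were paired. Scaling by the array median moved the median of all genes from -0.03 to 0.08 and list medians with it: 0.18 for cathepsins, 0.31 for other lipid-associated macrophage genes, -0.10 for the partners of Lpl, 0.09 for lysosomal genes, 0.20 for receptors and 0.06 for stellate cells. Quantile normalization gave -0.10 for the partners of Lpl. Lysosomal genes had 0.03 without scaling and with the deposited matrix. Normexp gave -0.02 for lymphocytes, a reversal, and 0.19 for neutrophils. Detection on all 6 arrays gave 0.23 for galectins, and the mean of probes -0.15 for tetraspanins. With 1 pool left out, the median ranged from -0.07 to 0.11 for cathepsins, from -0.54 to 0.03 for cholangiocytes, from 0.01 to 0.32 for galectins, from -0.28 to -0.06 for the partners of Lpl, from 0.17 to 0.60 for lymphocytes, from -0.08 to 0.12 for melanocytes and osteoclasts and from -0.20 to 0.05 for stellate cells. The cause of these shifts was not tested. The other list medians moved by less than the spread between pools in every alternative.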
